A study of Mus musculus with 6 samples.

Results

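The regions described here are tiled stretches of the mouse genome for which the promoter arrays list a transcript but no gene symbol. Members were chosen as experimental probes with a chromosomal position whose annotation on the array holds no entry pairing a symbol with a distance, and each was averaged with the other such probes within 500 bp on either side when at least 3 probes were present. This gave 11718 windows of 427965 in all, or 2.74%, built from 12930 probes. The label of regions without an annotated gene needed a qualification: no member probe was blank. Of the 12930 probes, 6684 listed Ensembl transcripts only, 4273 listed cDNA clones of the Mammalian Gene Collection (MGC) only, 1918 listed both and 55 listed a RefSeq accession without a symbol. The listed identifiers numbered 808, and 6 of them matched a gene in a RefSeq table of GRCm38.p6: Ttc28, Fcgr3, Gorasp2, Olfr1168, Lysmd4 and Gcfc2. The regions are therefore named by position and by the nearest genes with a symbol on either side on the array.

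The study asked where TEAD4 binds promoters in muscle cells. C2C12 is a line of mouse myoblasts, which form multinucleate myotubes once serum is lowered. Populations infected with a retrovirus carrying TEAD4 with a Flag-HA tag (2 samples) or the empty vector (1 control sample) were kept under puromycin selection, held for 5 days in differentiation medium (horse serum at 2%) and crosslinked with formaldehyde at 0.4%. The tagged TEAD4 came from the retroviral vector and the cells were infected pools, so the samples report on vector-driven protein and not on the endogenous factor. Chromatin precipitated with anti-Flag (IP) was labelled with Cy5 and input chromatin with Cy3, and each sample was hybridised to both Agilent promoter designs, 6 arrays in all. The labels call the TEAD4 samples duplicates and do not name separate cultures, so p-values measure a spread that may be technical. Values are log2 of IP over input, with 0 at the median of the array, and TEAD4 values are given for sample 1 and then sample 2.

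TEAD factors bind a short DNA element through their TEA domain and activate transcription with co-activators such as YAP and TAZ. Their elements lie in many muscle promoters and in enhancers away from starts. A stretch listed only under a transcript identifier can be the start of a gene that had no name when the array was designed, of a non-coding RNA or of a miRNA precursor. miRNAs are short RNAs that guide Argonaute proteins to messenger RNAs, mostly through their seed (bases 2 to 8), and miR-1, miR-133 and miR-206 are enriched in muscle.

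The members joined into 591 tiles at gaps of up to 2000 bp, of which 488 held a window. The median tile had 22 probes over 6383 bp, against 29 probes over 7557 bp for the 16054 tiles with a symbol. Members lay on 20 nuclear chromosomes and on chromosome M, the mitochondrial genome, where all 47 probes were members and none had a symbol.

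Of the 22 separate regions at least 2-fold over input in both TEAD4 samples, 10 had a RefSeq miRNA gene in their gap. Some of the mature miRNAs encoded in those gaps are shown for that reason, and those of Mir1a-1, Mir129b and Mir670 are left out. The arrays measured DNA windows and not the miRNAs. A gap here spans the flanking named genes, bodies included, and the stretch between them, so its miRNA can lie inside a flanking gene. Of the 421 tiles with a window and both flanking genes placed, 108 had a miRNA gene in this sense. The Usp25 / Cxadr gap gave a pair of the 10 regions. Sequences are from RefSeq (GRCm38.p6), 5′ to 3′, with the seed in capitals; 16 of the 17 miRNA genes had one. The miR-30 pair, the miR-29 pair and the miR-7 pair each share 1 seed.
miR-30a-5p: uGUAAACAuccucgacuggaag
miR-30c-5p: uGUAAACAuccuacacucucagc
miR-29b-3p: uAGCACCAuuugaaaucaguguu
miR-29c-3p: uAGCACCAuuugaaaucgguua
miR-7a-5p: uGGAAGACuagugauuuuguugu
miR-7b-5p: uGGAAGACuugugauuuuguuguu
let-7c-5p: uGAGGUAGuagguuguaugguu
miR-99a-5p: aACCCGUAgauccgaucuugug
miR-125b-5p: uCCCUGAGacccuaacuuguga
miR-199a-3p: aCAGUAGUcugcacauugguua
miR-214-3p: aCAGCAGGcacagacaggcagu
miR-350-3p: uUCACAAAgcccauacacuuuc
miR-129-5p: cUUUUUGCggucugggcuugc

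Across the series, IP signal was weaker in the control. At member probes the median IP signal was 3.50 to 5.02 times the local background in the TEAD4 samples and 1.74 to 1.88 times in the control. The share of member probes well above background in the IP channel was 99.8 to 99.9% in the TEAD4 samples and 93.5 to 94.7% in the control. The control also had wider ratios: the SD over member windows was 0.37 and 0.39 in the TEAD4 samples, against 0.97 in the control. Per the file headers, extended dynamic range was on in extracting the control arrays but off for TEAD4, so this setting and the sample cannot be told apart. The part of signal strength in the differences from the control was not tested.

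Most member windows showed no enrichment of TEAD4. Their medians were -0.10 and -0.07 in the TEAD4 samples, against 0.06 in the control, against -0.01, -0.01 and 0.26 in the 416247 windows with a symbol. The middle 90% of member windows lay between -0.70 and 0.46 in TEAD4 sample 1, between -0.57 and 0.61 in TEAD4 sample 2 and between -1.10 and 2.04 in the control. The members were thus below the windows with a symbol in each of the 3 samples, by 0.07 to 0.20 at the median. Pearson's r between the TEAD4 samples was 0.54 over the 11718 member windows and 0.57 over windows with a symbol; neighbouring windows share probes.

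TEAD4 was at least 2-fold over input in both samples in 76 member windows, or 0.649% of them, against 0.66% of all windows. The share of members was near that of the whole table. With the other sample disregarded, TEAD4 sample 1 passed in 96 windows and TEAD4 sample 2 in 235, both counts including the 76. The 76 windows formed 22 separate regions (windows that overlap or lie within 500 bp), each on its own tile, so 4.51% of member tiles with a window held one, against 5.18% of tiles with a symbol. All 76 were called by limma (TEAD4 mean against input, Benjamini-Hochberg adjustment over all windows, two-sided 0.05). The size rule had chosen them on the same TEAD4 values, so these calls are no separate support. Limma called 447 member windows higher than input, 3.81% of members against 6.59% of all windows, and 673 lower, 5.74% against 3.64%. The balance of calls turned round with normexp background correction, at 287 higher and 47 lower, and with quantile normalization between arrays, at 798 higher and 421 lower.

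Demanding in addition at least 2-fold over the control in both TEAD4 samples left 43 windows, or 0.367% of members against 0.262% of all windows. They lay in 16 of the 22 regions. Limma called 57 of the 76 windows higher than the control and none lower, and the control itself reached 2-fold in 8 of the 76. The 76 had been chosen for high TEAD4 values, which the test against the control uses again. The 57 calls are therefore no separate support, and the matching shares among the 2-fold windows of the whole series are not given here. Over all members limma called 1550 windows higher than the control, 13.2% against 11.6% of all windows, and 3374 lower, 28.8% against 33.5%. These tests take the spread of the single control from the TEAD4 duplicates, and with the arrays brought to 1 common spread they called 24 member windows higher and 22 lower than the control. Without centring on the array median the balance turned round, with 4543 higher and 1681 lower. With normexp background correction the count of 76 was 37, and with quantile normalization between arrays it was 320.

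Few of the 22 regions passed both with normexp correction and with windows reaching 1000 bp to each side. The regions named after Rims1 / Smap1, Mical2 / Parva, Emp1 and Zbtb38 were 2-fold in both TEAD4 samples at the same window under either setting. Those at Pld5 / Sdccag8, Gata5 / Slco4a1, Dpp9 / Fem1a and chr2:20889387-20890168 passed with normexp but not with the wider windows, and the one at Pigc / Dnm3 with the wider windows but not with normexp. Every other region was under 2-fold in at least 1 TEAD4 sample under each of these settings.

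**Figure D1:**
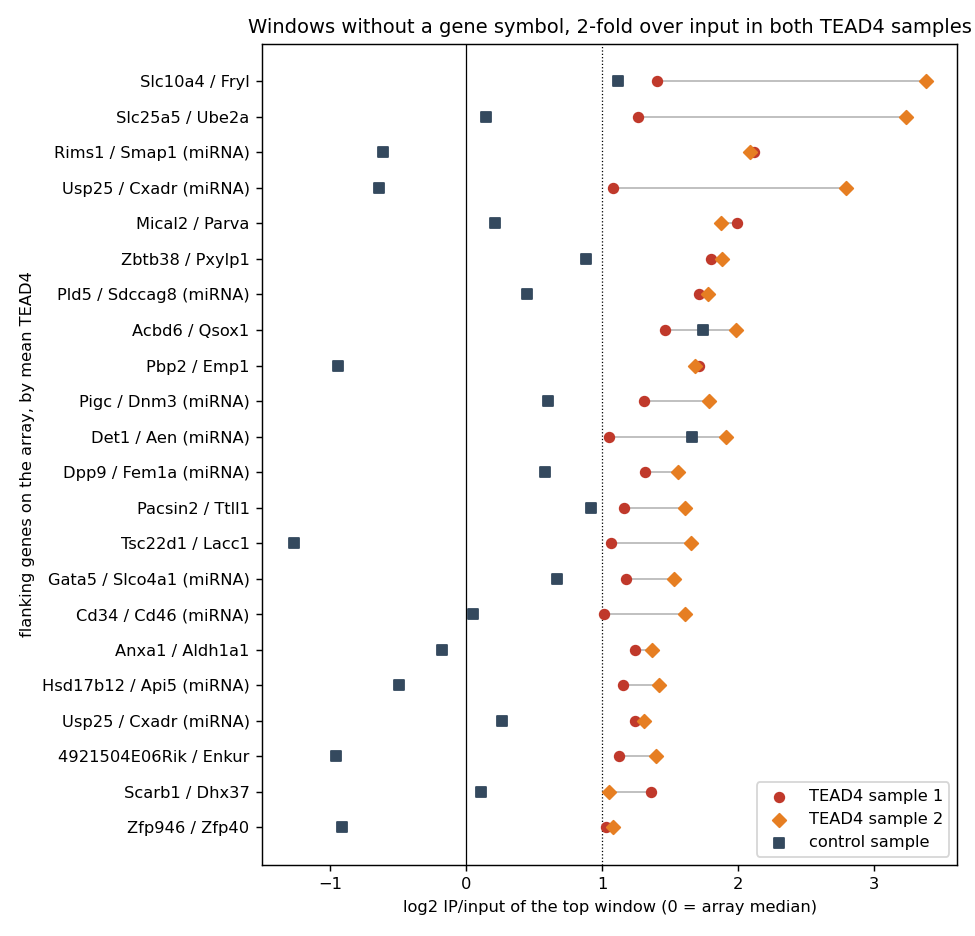
Log2 IP/input of the top window of each of the 22 regions without a gene symbol (x axis, dotted line at 2-fold). All were 2-fold over input in both TEAD4 samples. TEAD4 sample 1, TEAD4 sample 2 and the control are shown, with 1 row per region named by its flanking genes. Rows are marked where RefSeq places a miRNA in the gap, flanking genes included. The control square lies below input in 8 rows and at or above 2-fold in 3, and the TEAD4 samples stand far apart in 4 rows.

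A region with close TEAD4 values at a high level lay between Rims1, a scaffold of the synaptic active zone, and Smap1, an Arf GTPase-activating protein, at chr1:23225147-23226065. RefSeq places Mir30a and Mir30c-2 among the 17 genes of this gap, and the miR-30 sequences above belong to the gap. The distance from the region to either miRNA gene is not known. Another member tile of the gap had no such rise. Its top window, chr1:23243776-23244365, had 0.01 and -0.03 in the TEAD4 samples, against 0.82 in the control. The 5 probes of chr1:23225147-23226065 averaged 2.12 in TEAD4 sample 1, 2.09 in TEAD4 sample 2 and -0.61 in the control. Both TEAD4 samples were thus well above the control there. The TEAD4 mean was 2.11 ± 0.02 (SD, n = 2), or 4.30-fold over input (limma adjusted p = 9.79e-06). TEAD4 exceeded the control by 2.71 (limma adjusted p = 4.93e-06), and by 2.70 in its lower sample, the largest such value among the members (1.68 with normexp); 3 of the 5 control IP probes were well above background. The window was centred on a probe at -921 bp, upstream of the listed transcript start. The nearest probes with a symbol were 460242 bp away on the Rims1 side and 648614 bp away on the Smap1 side.

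The probes of this region gave a single rise in both TEAD4 samples. From -429.5 to 433.5 bp around the centre, values ran between 1.28 and 2.86 in TEAD4 sample 1, between 1.58 and 2.50 in TEAD4 sample 2 and between -1.76 and 0.33 in the control. At 1121.5 bp after the centre both TEAD4 samples were below input, at -0.48 and -0.48, and the control was at -0.08.

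**Figure D2:**
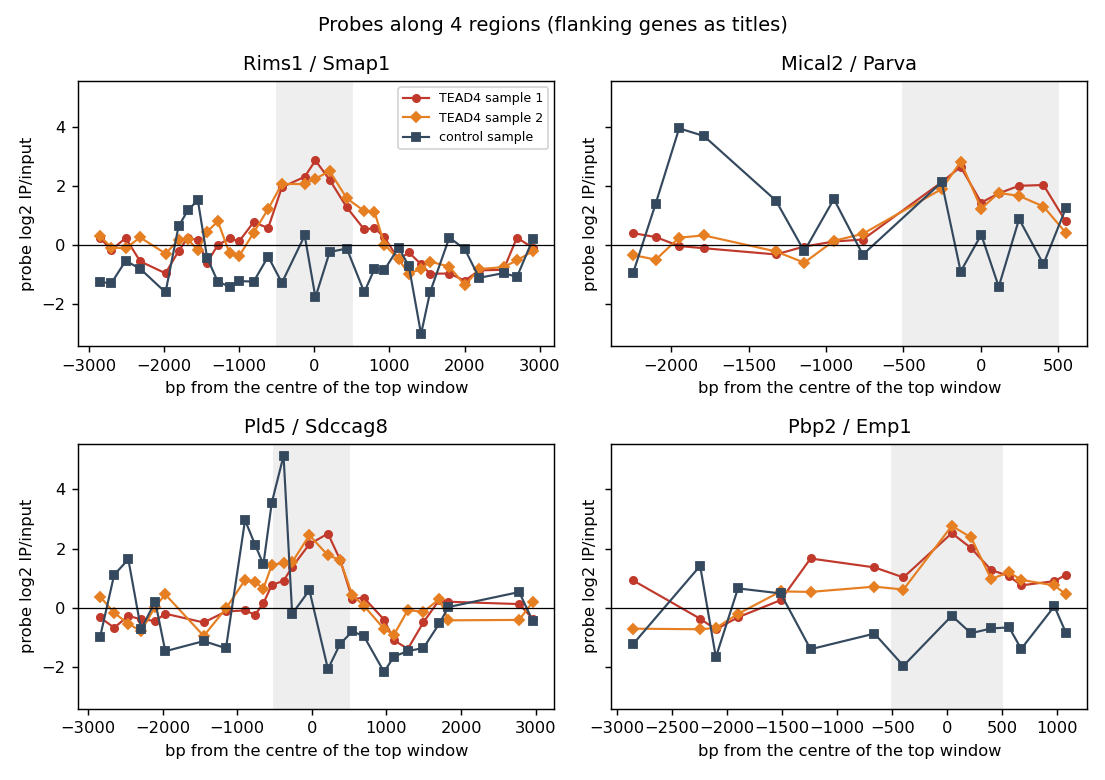
Log2 IP/input of single probes (y axis) against distance in bp from the centre of the top window (x axis) in 4 regions without a gene symbol, for TEAD4 sample 1, TEAD4 sample 2 and the control; grey marks 500 bp to each side. Both TEAD4 samples rise together near the centre, to 2.86 and 2.50 in the Rims1 / Smap1 region, while the control moves apart from them, with a probe at 5.13 in the Pld5 / Sdccag8 region. The panels are the regions ranked 3, 5, 7 and 9 by mean TEAD4, all with close TEAD4 samples. The regions ranked 1, 2 and 4, where the TEAD4 samples stood far apart, are not drawn.

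A second miRNA gap held the region at chr1:178611086-178611902, between Pld5, of the phospholipase D family, and Sdccag8, a centrosomal protein, where RefSeq places Mir350. It had 1.72 and 1.78 in the TEAD4 samples, against 0.45 in the control. The mean of 1.75 ± 0.05 (SD, n = 2) was above the control by 1.30 (limma adjusted p = 0.00188). The control value in this window included 1 of 5 probes at 5.13, while the other control probes lay between -2.06 and 0.60.

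The gap of Pigc, of GPI anchor synthesis, and Dnm3, a dynamin, with both gene bodies included, holds the Mir199a-2 and Mir214 pair. Its region chr1:164062001-164062550 had 1.31 and 1.79 in the TEAD4 samples, against 0.61 in the control. TEAD4 was above the control by 0.94 (limma adjusted p = 0.0201). The gap between Cd34 and Cd46, which holds Mir29b-2 and Mir29c, gave 1.02 and 1.61 in the TEAD4 samples at chr1:196734370-196735189, against 0.05 in the control. In both gaps the TEAD4 samples stood above the control without overlap. The Cd34 region was also the one nearest to the threshold from above, and was 2-fold above the control only in some of its windows.

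The gap between Gata5, a zinc finger factor of heart and gut, and Slco4a1, an organic anion transporter, holds Mir1a-1 and Mir133a-2, whose products are among the most abundant miRNAs of striated muscle. Its region chr2:180322494-180323259, covered by 6 probes, had 1.18 and 1.53 in the TEAD4 samples, against 0.67 in the control. TEAD4 was over input (mean 1.35 ± 0.25, SD, n = 2; limma adjusted p = 0.000297), while the difference of 0.68 from the control did not pass (limma adjusted p = 0.072). A window just below the 2-fold rule lay in the same region, at chr2:180322746-180323639, with 0.996 in TEAD4 sample 1 and 1.39 in TEAD4 sample 2. The window closest to the rule from outside was chr12:83089398-83090281, with 0.999 and 1.34 in the TEAD4 samples.

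The gap between Usp25, a deubiquitinase, and Cxadr, a tight junction protein, holds Mir99a, Mirlet7c-1 and Mir125b-2 and gave a pair of regions. At chr16:77526665-77527467 the TEAD4 samples had 1.24 and 1.31 and the control 0.27, a difference of 1.01 (limma adjusted p = 0.00518). At chr16:77483436-77484057, a single window of 3 probes, they had 1.08 and 2.80 and the control -0.64. The first region was alike in both TEAD4 samples, and the second had an SD of 1.21. The mean of the first, 1.28 here, was 0.72 with normexp and 0.83 with neighbours within 1000 bp, and that of the second, 1.94 here, was 0.56 with neighbours within 1000 bp.

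Mir129-2, Mir129b and Mir670 lie in the gap of Hsd17b12, a fatty acid and steroid dehydrogenase, and Api5, an apoptosis inhibitor. The region there, chr2:94046349-94046872, had 1.16 and 1.42 in the TEAD4 samples, against -0.49 in the control, a difference of 1.78 (limma adjusted p = 0.000194). The miR-7 genes lie in separate gaps. In the gap of Dpp9, a dipeptidyl peptidase, and Fem1a, which holds Mir7b, chr17:55875582-55876108 had 1.32 and 1.56 in the TEAD4 samples, against 0.58 in the control (difference 0.85, limma adjusted p = 0.0154). In the gap of Det1 and Aen, a p53-induced exonuclease, which holds Mir7-2, chr7:78757205-78758190 had 1.05 and 1.91 in the TEAD4 samples, against 1.66 in the control. There the control lay between the TEAD4 samples (difference -0.18, limma adjusted p = 0.691).

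As a description of the whole set, 421 tiles with a window had both neighbouring genes placed in RefSeq within 2000000 bp, gene bodies included. A miRNA gene lay in that span for 108 of these tiles, of which 10, or 9.26%, held a 2-fold window. No miRNA gene lay in it for 313, of which 12, or 3.83%, held one. This count was made after the regions had been seen, gaps that hold a miRNA were not matched for length, and the difference was not tested.

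The other leading regions had no miRNA gene in RefSeq between their neighbours. Between Mical2, a monooxygenase that disassembles actin filaments, and Parva, a focal adhesion protein, chr7:112167103-112167658 had 1.99 and 1.87 in the TEAD4 samples, against 0.21 in the control. The mean was 1.93 ± 0.08 (SD, n = 2) and the difference from the control 1.72 (limma adjusted p = 0.000224). It was covered by 7 passing windows and lay 46470 bp from the nearest Parva probe.

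The region chr6:135317070-135317924 lay 3163 bp from the nearest probe of Emp1, an epithelial membrane protein. It had 1.71 and 1.69 in the TEAD4 samples, against -0.94 in the control. TEAD4 exceeded the control by 2.64 (limma adjusted p = 6.08e-06), and all 4 control IP probes were well above background. This region had both a close pair of TEAD4 values and a control below input.

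At chr9:96561985-96562636, 16540 bp from the nearest probe of Zbtb38, a zinc finger protein that binds methylated DNA, the TEAD4 samples had 1.80 and 1.89 and the control 0.89. The window was centred at -336 bp, upstream of a listed Ensembl transcript start, and TEAD4 exceeded the control by 0.96 (limma adjusted p = 0.00714). Near Anxa1, the phospholipid-binding annexin A1, chr19:20469651-20470402 had 1.25 and 1.36 in the TEAD4 samples, against -0.18 in the control, 2512 bp from the nearest Anxa1 probe. Both were called higher than the control by limma.

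The 2 regions with the highest means also had the widest disagreement between TEAD4 samples. The Rims1 / Smap1 region, next by mean, had an SD of 0.02. At chr5:73349816-73350286, between Slc10a4, a vesicular solute carrier, and Fryl, the TEAD4 samples had 1.40 and 3.38 and the control 1.12, so the mean of 2.39 had an SD of 1.40. Limma called it over input (adjusted p = 0.000371) and not against the control (adjusted p = 0.0655). At chrX:33293699-33294082, 2124 bp from the nearest probe of Ube2a, a ubiquitin-conjugating enzyme, they had 1.26 and 3.23 and the control 0.14, over 3 probes. TEAD4 sample 2 was the higher one in each of the 4 regions with an SD over 0.5.

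In a region between Acbd6 and Qsox1, a sulfhydryl oxidase, TEAD4 and control could not be told apart. At chr1:157502943-157503557 the TEAD4 samples had 1.47 and 1.99 and the control 1.74 (difference -0.02, limma adjusted p = 0.97). In the top window of none of the 22 regions was the control above both TEAD4 samples. These windows had been picked for the highest TEAD4 mean of their region. The median of the regions' top means was 1.46, against 1.37 over the 820 regions with a symbol, 19 of which were above the highest region without one.

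Named genes of muscle and of the TEAD pathway give a scale for these values. The top window of Ankrd2, a muscle stress protein, had 2.95 and 2.61 in the TEAD4 samples, against -0.53 in the control. That of Chrng, the fetal acetylcholine receptor subunit, had 2.19 and 2.95 in the TEAD4 samples, against 0.62 in the control. That of Alb, the liver gene for albumin, had 0.07 and 0.00 in the TEAD4 samples, against -0.83 in the control. The top TEAD4 means were 2.11 for Ankrd1, 2.11 for Cyr61, 2.14 for Myog, 2.36 for Thbs1, 1.40 for Acta1 and 1.27 for Ctgf, and 2.11 for the Rims1 / Smap1 region. The control was itself 2-fold over input at Cyr61, with 1.10, and at Myog, with 1.02.

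A different order came from the difference to the control alone. Both TEAD4 samples exceeded the control by 2-fold or more in 417 member windows, 3.56% against 3.34% of all windows, in 178 regions. After the Rims1 / Smap1 and Emp1 regions, the largest difference in the lower TEAD4 sample was 2.33 at chr14:75289437-75289906, between Tsc22d1 and Lacc1, a window of 3 probes of which 2 control IP probes were well above background. It had 1.07 and 1.65 in the TEAD4 samples, against -1.27 in the control. With normexp correction this difference was -0.01, and with neighbours within 1000 bp it was -0.07.

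In 2 of the next regions the difference came mainly with a control far below input. At chr2:73574501-73575209, between Chn1, a Rac GTPase-activating protein, and Atf2, a transcription factor, the TEAD4 samples had 0.81 and 1.35 and the control -1.39. At chr2:20889709-20890546, on the side of Enkur, they had 0.96 and 1.06 and the control -1.25. Neither was 2-fold over input in both TEAD4 samples in that window. With normexp their lower TEAD4 sample exceeded the control by 0.83 and 0.92, under 2-fold.

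The control precipitate was enriched in many members. It was at least 2-fold over input in 2208 member windows, or 18.8%, against 26.4% of all windows, in 511 separate regions. These touched 70.9% of member tiles with a window, against 83.3% of tiles with a symbol. The highest control value, 4.99, was at chr12:89309843-89310582, where the TEAD4 samples had -0.71 and -0.41. The control had 4.82 at chr17:65682354-65682751, 292 bp from the nearest probe of Rab31, a small GTPase, where the TEAD4 samples had 0.30 and 0.11. It had 4.73 at chr6:119509862-119510462, and the TEAD4 samples had 0.16 and 0.01 there. At these regions the control alone was high. Their control values were 1.01, 1.98 and 1.99 with normexp correction and 2.20, 2.13 and 2.22 with arrays on a common scale. With normexp correction the count of 2208 was 214, and without centring on the array median it was 1058.

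TEAD4 was correspondingly below the control in many windows: 2072, or 17.7%, against 21.7% of all windows, were at least 2-fold below it in both TEAD4 samples. The lowest difference was -5.55 (limma adjusted p = 3.7e-07), at the chr12 region above. It was -1.16 with normexp, -2.90 with neighbours within 1000 bp and -3.05 with arrays on a common scale. The next was -5.13 at chr8:127330029-127330421, 115 bp from a probe of Pgbd5, a transposase-derived gene, where the TEAD4 samples had -1.18 and 0.06 and the control 4.57, a difference of -2.71 with normexp.

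Distance to the listed start separated members from windows with a symbol. Within 500 bp of the nearest listed start the medians of the 1960 member windows were -0.02 in both TEAD4 samples and 0.43 in the control. In the 87290 windows with a symbol at that distance they were 0.17 and 0.13 in the TEAD4 samples, against 1.12 in the control. The control was 2-fold over input in 33.0% of member windows there, against 54.0% of windows with a symbol. Beyond 2000 bp the shares were close, at 15.4% of members and 16.2% of windows with a symbol. The rise at the start, seen in all 3 samples in windows with a symbol, was thus smaller at the listed starts of the members.

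**Figure D3:**
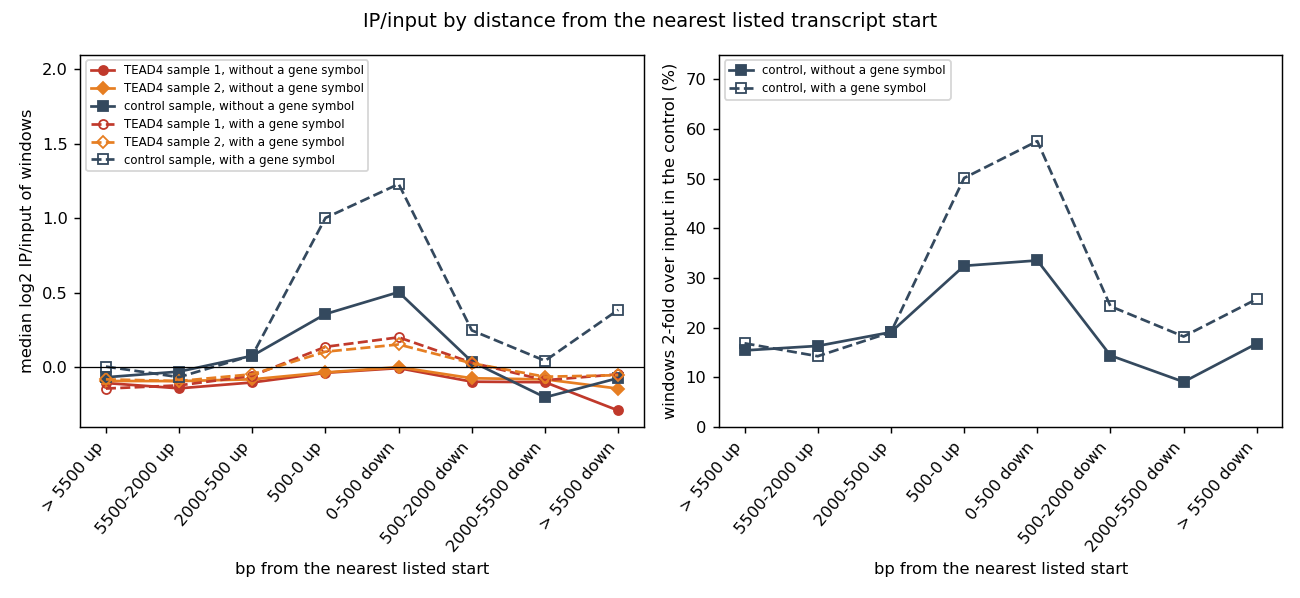
Median log2 IP/input (left) and percent of windows 2-fold over input in the control (right) by distance in bp upstream or downstream of the nearest listed transcript start (x axis), for windows without a gene symbol (filled, solid) and with one (open, dashed). The control peaks from 0 to 500 bp downstream, at a median of 0.51 without a symbol and 1.23 with one.

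The 2-fold TEAD4 windows did not follow that pattern in members. TEAD4 was 2-fold over input in both samples in 0.459% of member windows within 500 bp, 0.589% from 500 to 2000 bp and 0.773% beyond 2000 bp. In windows with a symbol the shares ran the other way, at 1.01%, 0.715% and 0.395%. The share was 2.51% among the 638 member windows from 2000 to 5500 bp downstream. These windows come from few regions, since overlapping windows share probes, and the difference in order was not tested.

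The share was also counted by kind of identifier, with no test. Windows centred on probes listing Ensembl transcripts only were 2-fold over input in both TEAD4 samples in 53 of 6177 cases, or 0.858%. Those listing MGC clones only were in 10 of 3794 cases, or 0.264%, and those listing both in 13 of 1702, or 0.764%. None of the 45 windows with a RefSeq accession were. The share over all windows of the series was 0.66%. Overlapping windows share probes, so these counts come from fewer regions. The windows limma called higher than input had another order, at 3.53% for Ensembl only, 4.24% for MGC only and 4.00% for both. Over all windows that share was 6.59%. The medians of the 2 larger classes were alike, at -0.10 for both in TEAD4 sample 1, at -0.08 and -0.06 in TEAD4 sample 2 and at 0.03 and 0.11 in the control.

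Among nuclear chromosomes the X stood lowest. The 648 member windows of X had medians of -0.26 and -0.17 in the TEAD4 samples, against -0.42 in the control, against -0.08, -0.05 and -0.04 in the 15282 X windows with a symbol. Every sample was lower in the members of X. Chromosome 1 held 21 of the 76 windows that were 2-fold over input in both TEAD4 samples, in 969 member windows. With a symbol, 194 of its 24430 windows passed, and 0.66% of all windows of the series did. The 21 windows share probes and come from the few chromosome 1 regions named above.

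**Figure D4:**
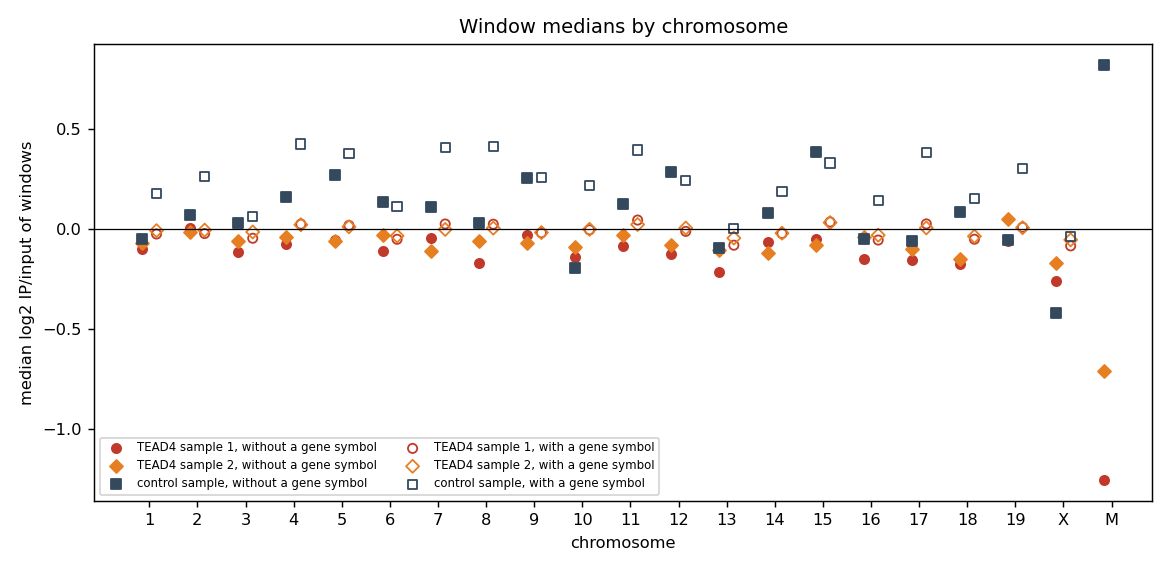
Median log2 IP/input of windows (y axis) by chromosome (x axis), for windows without a gene symbol (filled) and with one (open), in TEAD4 sample 1, TEAD4 sample 2 and the control. Chromosome M, tiled by members only, has medians of -1.25 and -0.71 in the TEAD4 samples and 0.82 in the control, and the members of X are lowest among nuclear chromosomes.

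Chromosome M set the low end of the members. The mitochondrial genome encodes ribosomal RNAs, transfer RNAs and subunits of the respiratory chain, lies outside the nucleus and is not packed on nucleosomes. Its 46 windows, from position 1428 to 10499, had a median of -1.25 (range -1.97 to -0.70) in TEAD4 sample 1, -0.71 (-1.39 to -0.24) in TEAD4 sample 2 and 0.82 (0.66 to 1.08) in the control. All 47 probes were below input in both TEAD4 samples and above input in the control, with no overlap between TEAD4 and control. Limma called 44 of the 46 windows lower than input and all 46 lower than the control. With normexp correction the calls numbered 20 against input and 2 against the control. Calls against the control were 0 after loess, 11 with arrays on a common scale and 21 with quantile normalization.

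The lowest window of all members was chrM:5002-5842, with -1.97 and -1.39 in the TEAD4 samples, against 0.89 in the control (limma adjusted p = 4.7e-05 over input). Of the 14 member windows at least 2-fold below input in both TEAD4 samples, 0.119% of members against 0.0252% of all windows, 10 were on chromosome M. Only 0.137% of nuclear member windows lay below the chromosome M median in TEAD4 sample 1, and 1.87% did in TEAD4 sample 2.

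**Figure D5:**
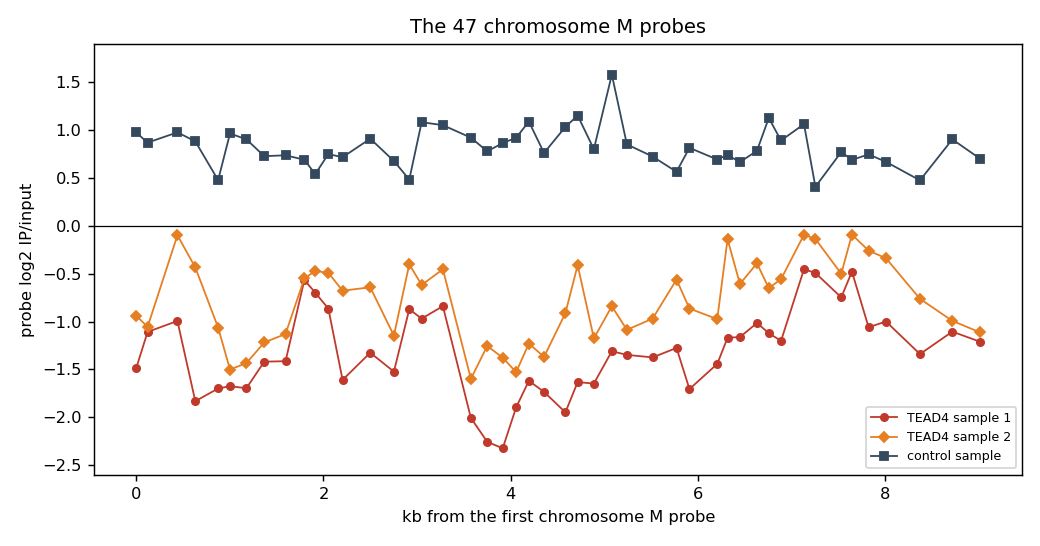
Log2 IP/input of the 47 chromosome M probes (y axis) against distance in kb from the first of them (x axis) in TEAD4 sample 1, TEAD4 sample 2 and the control. All TEAD4 points lie below 0 and all control points above it, and the TEAD4 samples share their low stretch near 4 kb.

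These probes were very bright. Median input intensity at chromosome M was 127511 and 167123 in the TEAD4 samples, against 128846 in the control, against 807, 784 and 714 at the other members of that design. In TEAD4 sample 2, 2 IP spots and 1 input spot were saturated. Nuclear probes with input intensity in the same range had medians of 0.28 and -0.04 in TEAD4 samples 1 and 2 (684 and 468 probes) and 1.44 in the control (433 probes). The chromosome M median was thus below that of these nuclear probes in all 3 samples, in the control too, where 18% of them lay below it. Brightness was not matched within the range. TEAD4 over input on chromosome M was negative under each alternative run, but its sign against the control was not stable. The median difference was -1.77 here, 0.71 with normexp correction and 0.17 after loess within each array, where the control median was -1.25 and -1.35.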

How the data were processed

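The deposited intensity values are, per the file headers, processed signals of each spot and channel that Agilent Feature Extraction (version 9.5.3.1) had background-subtracted, detrended and dye-scaled. The deposited log10 ratios are IP over input from these signals, equal to the deposited series matrix values (largest difference 0), not centred (array medians -0.182 to 0.00124) and 0 where both channels sit at the software's floor. Coordinates are printed as deposited; their genome build is not given by the labels or headers, and the RefSeq GRCm38.p6 table served only for names and gene order. The series matrix was used only in an alternative.

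From the processed intensity, log2 of IP over input was computed with the median of each array set to 0. Spots that were controls, lacked a position or carried a non-uniformity flag were dropped (236180 and 235690 probes kept on designs 1 and 2). Windows were fitted per design with limma 3.58.1 in R 4.3.3 (group means, 1 residual degree of freedom, 13.3 and 13.8 prior degrees of freedom), with Benjamini-Hochberg adjustment over all windows; size rules carry no test. The number of arrays limits the precision. Window means and limma calls were tested on simulated data. The simulated control was drawn from the spread between the TEAD4 samples, so calls against the wider real control could not be checked this way. The members, lists, naming rule (up to 12 regions by mean TEAD4, 6 by difference from the control, 3 by control, 2 lowest, the windows beside the threshold) and comparison genes were chosen with earlier results of these data known; the miRNA intervals and lower-ranked regions were named after their values were seen. No motif was searched. Alternatives changed background correction, centring, dye and scale normalization, window width, probe minimum, probe filter, fold and samples.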

Additional observations from a re-analysis of the deposited data

How the results depend on the processing

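Counts over the member windows moved with the background correction, the scaling of arrays, the window width, the fold and the samples. With normexp correction, limma called 287 windows higher and 47 lower than input, and 89 higher and 212 lower than the control; the size rules gave 37 windows in 12 regions 2-fold over input in both TEAD4 samples and 214 in the control. Scaling arrays to a common median absolute deviation gave 170 windows in 43 regions for TEAD4, 127 also above the control, 484 in the control, and 24 higher and 22 lower than the control. Quantile normalization gave 320 in 71 regions, 212 also above the control, 618 in the control, 798 higher and 421 lower than input, and 145 higher and 95 lower than the control. Without centring, 4543 windows were higher and 1681 lower than the control and 1058 were 2-fold in the control; centred on the median of windows, 2711 were higher. Loess gave 678 higher than input and 1313 in the control. Neighbours within 1000 bp gave 678 higher and 1103 lower than input, and 33 windows in 9 regions, 21 also above the control. At least 5 probes left 1392 in the control. At 1.5-fold the counts were 218 in 53 regions, 114 also above the control and 3585 in the control; at 3-fold they were 14 in 5 regions, 8 and 1054. With a single TEAD4 sample they ranged from 96 to 235 windows, from 32 to 62 regions and from 52 to 123 also above the control. The share 2-fold in the control, members minus windows with a symbol, was -7.78 percentage points, against -0.92 with normexp, -4.90 without centring, -4.85 with loess, -2.25 with common scale, -3.11 with quantiles and -5.18 at 3-fold. The chromosome M median over input was -0.55 with normexp and -1.47 with common scale, and its difference from the control was 0.71 with normexp, 0.17 with loess and -1.21 without centring. Of the 22 regions, 8 stayed 2-fold in both TEAD4 samples at the same window with normexp and 5 of 22 with neighbours within 1000 bp. At chr14:75289437-75289906 the lower TEAD4 sample minus control was -0.0057 with normexp and -0.069 with neighbours within 1000 bp. The cause of these shifts was not tested. The alternatives that left out chromosome M or used the deposited log10 ratios were chosen after seeing the data. Each slide held 1 array, so slide could not be fitted as a block, and with 1 TEAD4 sample limma has no residual degree of freedom and was not run. No paired analysis was possible because the groups share a single replicate number. The control's IP signal, with a median of 1.74 and 1.88 times background at the members of the array designs, limits what its ratios can resolve.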

Other observations

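Further intervals with a RefSeq miRNA gene held member windows below the 2-fold rule; they were chosen after their values were seen. Those named here are a few of many. In many of the others the control was above both TEAD4 samples at the top TEAD4 window of the tile. The tiles with Mir29a and Mir29b-1 and with Mir146 were among these. The gap between Ppm1h and Mon2, which holds Mirlet7i, had 0.87 and 1.15 in the TEAD4 samples, against -1.27 in the control, at chr10:122387715-122388226 (limma adjusted p = 0.000972 over input and 9.6e-06 against the control). The gap between Pkhd1 and Il17a, which holds the muscle miRNA genes Mir206 and Mir133b, had 0.70 and 1.12 in the TEAD4 samples, against -1.06 in the control, at chr1:20662468-20663382. TEAD4 was higher than the control there by 1.98 (limma adjusted p = 0.000106), in both TEAD4 samples. The gap of Ago2 and Gpr20, with Mir151, had 0.84 and 0.89 in the TEAD4 samples, against -0.51 in the control, at chr15:73248873-73249681. Another tile of that gap had the opposite order. At chr15:73086935-73087354 the TEAD4 samples had 0.17 and 0.25 and the control 0.85. The gap of Hprt and Plac1, with Mir322, Mir503 and neighbours, had 0.46 and 0.54 in the TEAD4 samples, against 1.39 in the control, at its highest TEAD4 window. There the control was above both TEAD4 samples. Another window of the same gap had the opposite order. At chrX:49300212-49300910 the TEAD4 samples had 0.33 and 0.42 and the control -1.40.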
